A study of Macaca mulatta with 22 samples.

Results

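Follicles taken 12 h after human chorionic gonadotropin (hCG) were compared with follicles taken at 0 h, without hCG, in the rhesus macaque (Macaca mulatta). The members are the arrays whose sample titles give these times, 4 at 12 h and 6 at 0 h, or 10 of the 22 arrays of the series. Each array held RNA of 1 dominant follicle, the one that matures in its cycle, hybridised to the Affymetrix rhesus macaque array. In both groups the females had received a GnRH antagonist, which blocks their own gonadotropin release, with 30 IU of recombinant human FSH and 30 IU of recombinant human LH once serum estradiol had reached 100 to 120 pg/ml. The 12 h group then received 1000 IU of recombinant hCG and the 0 h group none. The remaining arrays, 24 h and 36 h after hCG, served to estimate the spread between follicles. They also entered the mean levels that picked the brightest probe set of each gene and set the brightness classes. The labels do not tie arrays to animals, so p-values reflect how much these follicles vary, whether or not they came from different females.

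hCG acts on the luteinizing hormone receptor of granulosa and theca cells, the hormone-producing cells of the follicle wall. In the mammalian ovary this signal raises cyclic AMP, ends the division of granulosa cells, begins their conversion to progesterone-making luteal cells, and starts a local reaction that resembles inflammation and loosens the follicle wall before rupture. The comparison asks which genes differ in level at 12 h, across the whole array and not only among genes of steroid synthesis and ovulation.

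All levels below are log2 of the deposited array intensity, so a difference of 1 is 2-fold, and changes are 12 h minus 0 h with their standard error (SE). Array medians lay between 4.71 and 4.74, and no detection call was given, so the size of a change below that level is uncertain. Between pairs of the 10 arrays the correlation over all probe sets ran from 0.877 to 0.913, and 0 pairs were identical. The first principal component held 38.9% of the variance and placed the 12 h arrays between 46.6 and 62.2 and the 0 h arrays between -48.6 and -26.5, so the groups did not overlap on it. The second held 12.7% and set 12 h replicate 3 (-54.9) and 12 h replicate 4 (51.5) apart from all other arrays. An index of RNA quality, the mean log2 signal of the 3' minus the 5' control probe sets, was 0.626 to 0.853 at 12 h and 0.506 to 0.699 at 0 h, with 12 h replicate 3 highest. Its part in the results was not tested beyond a fit with the index as a covariate.

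Of 52766 probe sets, 4922 differed between the groups at an adjusted p under 0.05 (limma, Benjamini-Hochberg), or 9.33% of those tested. There were 2259 higher at 12 h (4.28%) and 2663 lower at 12 h (5.05%). When only the 10 arrays were fitted, without the later times, the count was 2740, with 1221 higher and 1519 lower. Without any one of the 10 arrays it lay between 3502 and 4780. All 4 arrays at 12 h lay above all 6 at 0 h for 2486 probe sets (4.71%) and below them for 2702 (5.12%). Changes of at least 2-fold were called for 870 probe sets upwards and 854 downwards, and of at least 8-fold for 50 upwards and 23 downwards.

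Detection of a difference depended on brightness. When probe sets were split by mean level into 4 equal classes, 0.872% of the dimmest class were called and the median SE of the change was 0.77, whereas in the brightest class 21.4% were called with a median SE of 0.15. Probe sets without a single gene symbol in the platform's annotation made up 1730 of the 4922 calls. The results below are per gene, for 14132 genes with a symbol, each given by its brightest probe set. Of these genes 919 were called higher at 12 h (6.5%) and 1102 lower at 12 h (7.8%), and 1118 genes (7.91%) were called with each of the 10 arrays left out in turn. In the fit of the 10 arrays alone 499 were called higher and 614 lower. At least 2-fold changes were called for 321 genes upwards and 316 downwards. The median change over all genes was -0.0037. Among 1085 called genes that had several probe sets, 488 had another probe set called the same way and 16 had one called the opposite way. Gene lists are described by such counts beside these shares, with other counts where leaving out an array or the later times moved one by more than 1.5 times. The brightest class of probe sets, from a mean level of 6.83 up, held 1336 called higher and 1481 called lower. The shares over all genes are therefore a low yardstick for bright lists. List counts of 1 or 2 genes moved between 0 and 4 as arrays were left out.

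**Figure D1:**
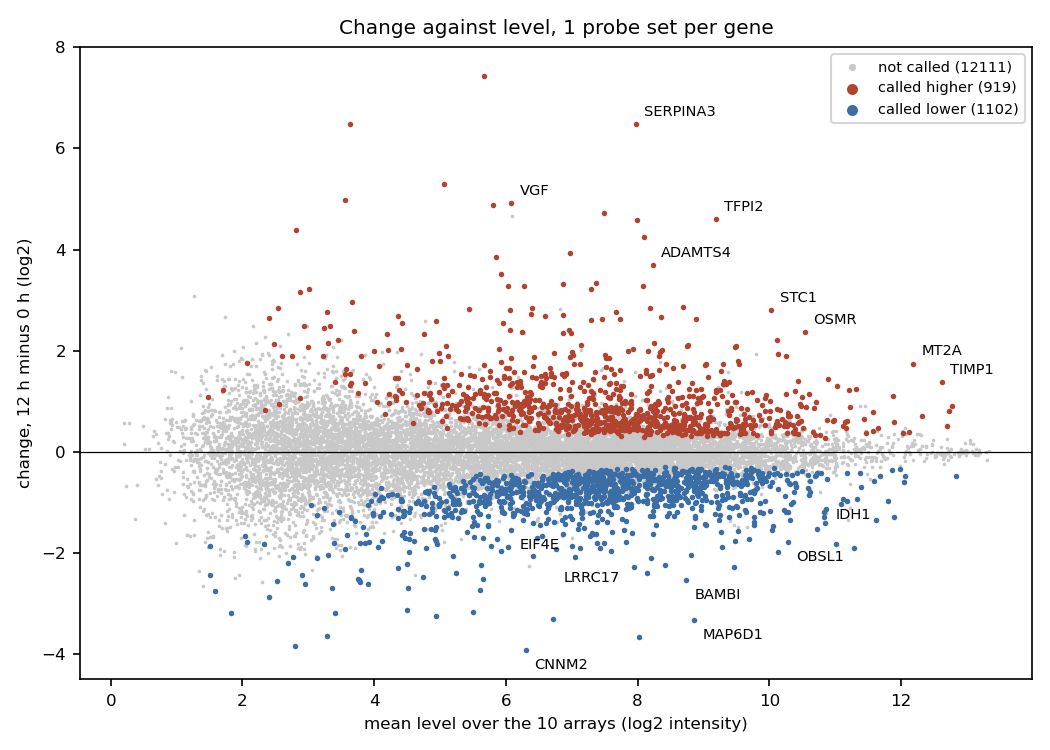
Change between groups (12 h minus 0 h, log2) against the mean level over the 10 arrays (log2 intensity), 1 point per gene, with 919 genes called higher at 12 h in red, 1102 called lower in blue and the rest in grey. Calls become sparse towards the dim end on the left, and the increases reach farther from 0 than the decreases.

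The genes named below had to be called with every array left out in turn and to have groups that do not overlap, unless a sentence says otherwise, so the lack of overlap of a named gene is part of how it was chosen. The largest changes among genes above a level of 7 in the higher group included several secreted proteins outside the usual ovarian lists. TFPI2, a secreted inhibitor of serine proteases such as plasmin, read 12.11, 11.80, 11.57 and 12.32 in the 12 h follicles, against a lowest, median and highest of 6.66, 7.21 and 8.37 in the 0 h follicles. Its change was 4.60 ± 0.34 (adjusted p = 4.32e-07, limma), and 3 of its 5 probe sets were called higher. The 12 h follicles spanned less than 1 log2 unit, and the lowest of them stood more than 3 units above the highest 0 h follicle.

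VGF, a neuropeptide precursor stored in secretory granules, read 8.76, 8.998, 9.10 and 9.29 at 12 h, against 1.89, 4.36 and 6.27 as the lowest, median and highest at 0 h (change 4.92 ± 0.82, adjusted p = 0.000873, limma). The 12 h follicles were close together and the 0 h follicles spread widely, mostly at or below the array median. NPTX2, a secreted pentraxin that clusters glutamate receptors at synapses, read 10.69, 10.63, 9.07 and 12.57 at 12 h, against 5.18, 5.65 and 8.60 at 0 h in the same order (change 4.58 ± 0.82, adjusted p = 0.00152, limma). Its groups came within 0.5 log2 units of each other, because 0 h replicate 6 was high and 12 h replicate 3 low. STC1, the secreted glycoprotein stanniocalcin, was among the brightest genes that rose. It read 11.54, 11.54, 11.23 and 12.55 at 12 h, against 8.23, 8.82 and 9.78 at 0 h (change 2.81 ± 0.34, adjusted p = 5.22e-05, limma).

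GFPT2, an isoform of the enzyme that commits fructose 6-phosphate to the hexosamine pathway and so supplies sugars for hyaluronan and glycoproteins, read 10.69, 10.82, 9.46 and 11.63 at 12 h, against 5.82, 6.14 and 7.84 at 0 h (change 4.26 ± 0.44, adjusted p = 1.29e-05, limma). UGP2, which makes the UDP-glucose used in the same kind of synthesis, changed by 0.87 ± 0.21, and the sulfatase gene SULF2, whose product trims heparan sulfate, by -1.35 ± 0.21. The glycan and proteoglycan list that holds these genes showed no prevailing direction, with 7 of 98 higher, 8 lower and a median of 0.01. The higher count was 4 without 12 h replicate 2, the lower count 4 without 12 h replicate 3 and 5 without 12 h replicate 1 or 0 h replicate 5, and in the fit of the 10 arrays alone they were 2 and 1. With the RNA quality index as a covariate 4 were lower. ADAMTS4, a protease that cuts the proteoglycans aggrecan and versican, rose by 3.70 ± 0.42, and the protease inhibitor TIMP1 by 1.38 ± 0.12 from a level that was already above 11.7 in every 0 h follicle. Over the proteases of the ADAM, MMP and cathepsin families 9 of 73 were higher (12.3%) and 4 lower (5.48%). Over all genes the shares were 6.5% and 7.8%.

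**Figure D2:**
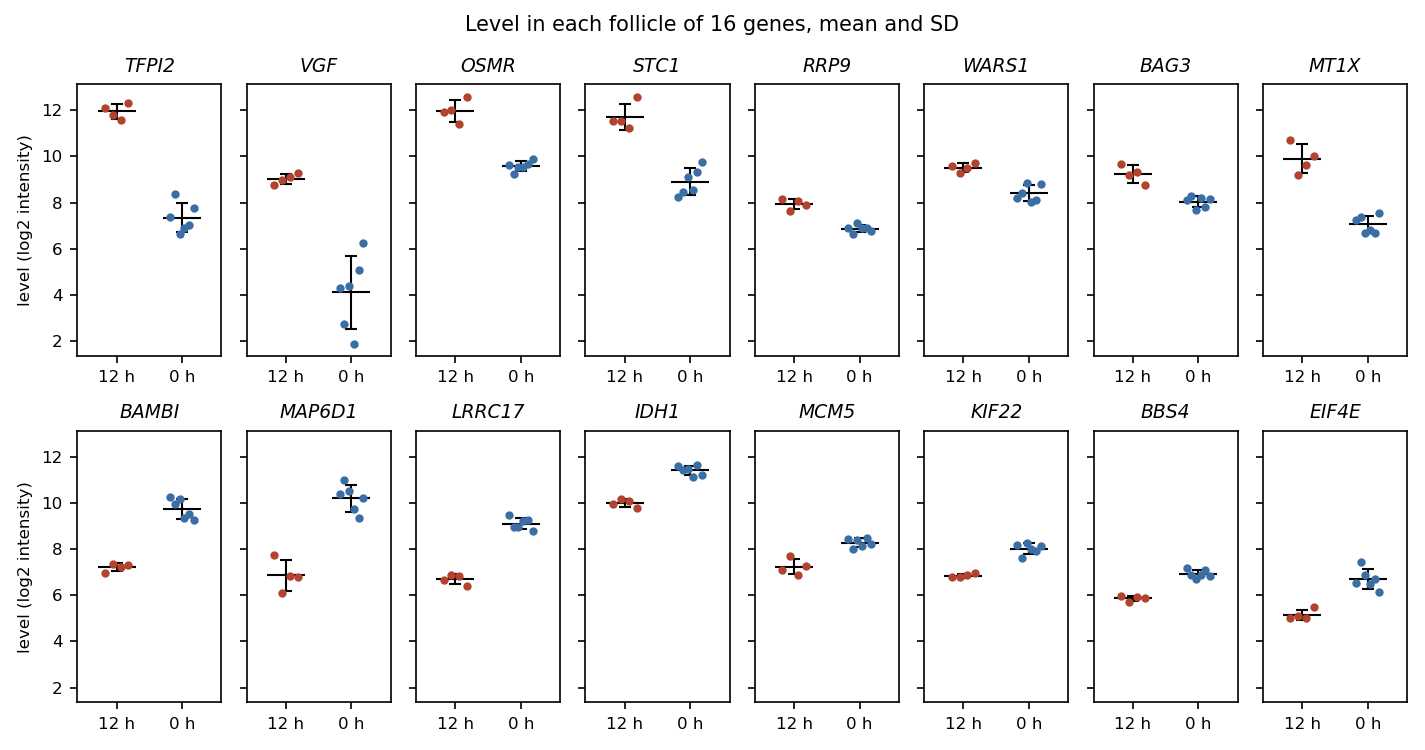
Level of 16 named genes in every follicle (log2 intensity), 12 h in red on the left and 0 h in blue on the right of each panel, with horizontal bars for the mean and error bars for the SD (n = 4 and n = 6). The 8 genes of the upper row were higher and the 8 of the lower row lower at 12 h, and the points of the groups do not overlap in any panel.

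OSMR, IL6ST and STAT3, which act in 1 signalling chain of the interleukin 6 cytokine family, all rose. OSMR, the oncostatin M receptor subunit, read 11.91, 12.00, 11.39 and 12.58 at 12 h, against 9.26, 9.60 and 9.90 as the lowest, median and highest at 0 h (change 2.37 ± 0.20, adjusted p = 1.71e-06, limma), and all 3 of its probe sets were called higher. IL6ST, the shared signalling subunit gp130, changed by 1.87 ± 0.32 (adjusted p = 0.00106) and STAT3, the transcription factor that this receptor activates, by 1.64 ± 0.20 (adjusted p = 7.6e-05, both limma). STAT3 read 8.65, 8.41, 8.39 and 8.83 at 12 h, against 6.46, 6.98 and 7.35 at 0 h. Of 26 measured genes of the JAK-STAT and SOCS list 7 were higher and 1 lower, beside 6.5% and 7.8% over all genes, and the list's median change was 0.28. The ligand LIF, which signals through IL6ST, is described among the variable genes below.

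NF-kB is a transcription factor of inflammatory signalling. Among 31 of its targets and feedback regulators 10 were higher (32.3%) and 1 lower (3.23%), beside 6.5% and 7.8% over all genes. Of the 31, 27 had a positive change, and the median was 0.58. BCL3, an atypical inhibitor of the NF-kB family, changed by 1.98 ± 0.29, SOD2, the mitochondrial superoxide dismutase, by 1.73 ± 0.23 and the chemokine CCL2, which attracts monocytes, by 2.63 ± 0.41. CCL2 read 8.89, 8.35, 9.41 and 9.51 at 12 h, against 5.46, 6.39 and 7.62 at 0 h. Of 24 genes of the AP-1, ATF and CREB families 7 were higher (29.2%) and 1 lower (4.17%). Among the higher ones were MAFF (1.54 ± 0.18) and JUNB (1.86 ± 0.40), both leucine zipper factors. By contrast 1 of 37 interferon-stimulated genes was higher (2.7%) and 4 were lower (10.8%), with a median of -0.20. The 4 lower ones were 7 without 12 h replicate 3, 2 when 0 h replicate 2, 12 h replicate 1 or 12 h replicate 4 was left out, 1 without 12 h replicate 2, and 2 in the fit of the 10 arrays alone. IFI16, a sensor of DNA, rose by 1.08 ± 0.16, and IFIT3, an antiviral effector, fell by 0.96 on the log2 scale with an SE of 0.20.

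Both sides of a cytokine pair were among the named genes. IL33, an alarmin of the interleukin 1 family held in cell nuclei, read 9.14, 8.43, 7.61 and 8.40 at 12 h, against 5.39, 6.06 and 6.84 at 0 h (change 2.34 ± 0.46, adjusted p = 0.00322, limma). IL1RL1, which encodes its receptor ST2, read 7.62, 9.03, 7.09 and 8.89 at 12 h, against 3.47, 4.23 and 5.23 at 0 h (change 3.85 ± 0.53, adjusted p = 0.000169, limma), and 3 of its 4 probe sets were called. The 12 h follicle lowest for both was replicate 3. Over all chemokines, interleukins and their receptors 13 of 106 were higher (12.3%) and 5 lower (4.72%), beside 6.5% and 7.8% over all genes. The fit of the 10 arrays alone called 7 higher and 3 lower. Over all genes that fit moved the counts from 919 to 499 higher and from 1102 to 614 lower.

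Of 45 genes of the clotting and complement cascades 13 were called higher (28.9%) and 1 lower (2.22%), beside 6.5% and 7.8% over all genes. Of the 13, 10 were called with every array left out. Besides TFPI2, F3, the tissue factor that starts clotting, read 9.74, 10.05, 10.12 and 10.23 at 12 h, against 6.99, 7.76 and 9.71 at 0 h (change 2.12 ± 0.43, adjusted p = 0.00405, limma). The groups nearly met, at 9.74 in the lowest 12 h follicle and 9.71 in the highest 0 h follicle. F2RL1, a receptor activated by tissue factor with factor VIIa and by trypsin-like proteases, read 10.999, 9.62, 9.92 and 11.12 at 12 h, against 6.84, 7.43 and 8.84 at 0 h (change 2.87 ± 0.38, adjusted p = 0.000124, limma). The list's median change was 0.39. Among the TNF superfamily, caspases and BCL2 family 8 of 51 were higher (15.7%) and 1 lower (1.96%). There were 5 higher without 12 h replicate 1 and 4 in the fit of the 10 arrays alone or with the RNA quality index as a covariate. TNFRSF12A, the receptor of the cytokine TWEAK, had the largest change of those the naming rule took, with 9.16, 8.82, 9.30 and 10.03 at 12 h, against 5.49, 6.72 and 7.66 at 0 h (change 2.76 ± 0.37, adjusted p = 0.000125, limma).

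Markers of macrophages and monocytes were also higher at 12 h. Of 16 measured, 8 were higher and none lower, with a median change of 1.03, and their mean level was 7.78, 7.70, 7.98 and 7.02 at 12 h and 6.24 to 7.00 at 0 h. The lowest 12 h follicle, replicate 4, was therefore level with the highest 0 h follicles. FCN1, a lectin of monocytes, changed by 2.33 ± 0.40 and CD14, the co-receptor for endotoxin, by 1.03 ± 0.24. The count of 8 was 4 in the fit of the 10 arrays alone and 3 with the RNA quality index as a covariate. Markers of neutrophils, B cells, erythroid cells and endothelium had 0 calls among 10, 8, 5 and 16 measured genes, with 2 of 10 platelet markers higher, and T and NK cell markers had 1 higher and 1 lower of 12. Neutrophil markers averaged 3.86 to 4.45 at 12 h and 3.01 to 4.10 at 0 h, below the array median, where few probe sets were called. Of these 10 markers 9 had a positive change, with a median of 0.52. Erythroid markers (2.69 to 3.80 over both groups) and B cell markers (3.44 to 4.92) were also dim. In whole follicles more cells of a type and more RNA per cell cannot be told apart, and the part of macrophages in the rise of cytokine, NF-kB and complement genes was not tested.

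Genes for making ribosomes and charging transfer RNA held members called higher at 12 h and none called lower. The mean levels of both lists lay in the brightest class, where 21.4% of probe sets were called in either direction. Of 61 measured genes of nucleolar ribosome assembly 20 were higher and none lower, beside 6.5% and 7.8% over all genes. The list's mean level was 8.40, 8.17, 8.20 and 8.33 at 12 h and 7.89 to 8.06 at 0 h, without overlap, and 52 of the 61 had a positive change with a median of 0.35. The count was 12 without 12 h replicate 1 and 11 in the fit of the 10 arrays alone. RRP9, a protein of the small nucleolar particle that processes ribosomal RNA, read 8.17, 7.66, 8.07 and 7.91 at 12 h, against 6.65, 6.90 and 7.11 at 0 h (change 1.08 ± 0.14, adjusted p = 9.95e-05, limma). FTSJ3, a methyltransferase of ribosome precursors, changed by 0.72 ± 0.11 and TSR1, a late assembly factor of the small subunit, by 0.77 ± 0.17.

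All 14 measured tRNA synthetase genes and partners had a positive change, with a median of 0.44, and 6 of them were called, with 3 called without 12 h replicate 1 and 2 in the fit of the 10 arrays alone. WARS1, which charges tryptophan, read 9.57, 9.27, 9.48 and 9.73 at 12 h, against 8.01, 8.32 and 8.84 at 0 h (change 1.11 ± 0.27, adjusted p = 0.0119, limma). Translation factors were mixed, with 9 of 39 higher and 4 lower. There were 5 higher without 12 h replicate 1 or replicate 2, 2 lower without 12 h replicate 3, and 3 higher and 1 lower in the fit of the 10 arrays alone. With the RNA quality index as a covariate 2 were lower. EIF4E, which binds the cap of messenger RNA, was the member with the largest change and fell by 1.55 on the log2 scale with an SE of 0.21 (adjusted p = 0.000166, limma). Its level was 5.00, 5.11, 5.01 and 5.48 at 12 h, against 6.16, 6.63 and 7.46 at 0 h, near the array median in the 12 h follicles. The proteins of the ribosome itself differed little, with 1 of 34 cytosolic ribosomal protein genes higher and 1 lower and a median of -0.01. The higher one was RPL19, at 11.79, 12.05, 11.12 and 12.10 at 12 h, against 9.87, 10.36 and 10.90 at 0 h (change 1.44 ± 0.20, adjusted p = 0.000229, limma).

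Lists of protein folding and degradation held genes called higher and none called lower. Their mean levels lay in the brightest class, where 21.4% of probe sets were called in either direction. The share of 6.5% higher over all genes is thus a low yardstick for them. Among 22 cytosolic heat shock proteins and co-chaperones 6 were higher (27.3%) with a median of 0.32. Of these calls 3 remained past the threshold without 12 h replicate 1 or without replicate 4. BAG3, a co-chaperone of HSP70, read 9.66, 9.19, 9.35 and 8.75 at 12 h, against 7.69, 8.13 and 8.28 at 0 h (change 1.20 ± 0.17, adjusted p = 0.000263, limma). STIP1, the adaptor between HSP70 and HSP90, changed by 0.61 ± 0.12. Of 12 genes of TRiC and prefoldin, the complexes that fold actin and tubulin, 5 were higher, with TCP1 at 0.51 ± 0.10 and PFDN2 at 0.52 ± 0.10. The TRiC count was 3 to 4 with any array left out, 2 in the fit of the 10 arrays alone and 3 with the RNA quality index as a covariate.

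For the proteasome 25 of 30 genes had a positive change with a median of 0.31, and 8 were called. That count was the least stable of the group, at 2 without 12 h replicate 2, 3 when 12 h replicate 1, 12 h replicate 4 or 0 h replicate 6 was left out, 11 without 12 h replicate 3, 5 without any of 0 h replicates 1, 3, 4 and 5, 1 in the fit of the 10 arrays alone and 3 with the RNA quality index as a covariate. PSMC4, an ATPase of its cap, changed by 0.60 ± 0.13. Of 35 genes of protein entry into the endoplasmic reticulum and glycosylation 6 were higher (17.1%). The count was 3 without 12 h replicate 4 and 3 in the fit of the 10 arrays alone. The mean level of this list also lay in the brightest class, with 21.4% of probe sets called in either direction. SEC61A1, the pore of that entry, read 9.63, 9.77, 9.19 and 9.999 at 12 h, against 8.51, 8.68 and 8.84 at 0 h (change 0.96 ± 0.17, adjusted p = 0.00118, limma).

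Of 21 oxidative stress genes 6 were higher and 3 lower, and the largest increases among those named were in MT1X and MT2A, metallothioneins, which bind zinc and copper. The other metallothioneins of the list, MT1E at 0.31 and MT3 at -0.16, did not pass the test. MT2A, at the top of the intensity range, read 13.24, 13.25, 13.12 and 13.29 at 12 h, against 10.92, 11.48 and 11.90 at 0 h (change 1.74 ± 0.25, adjusted p = 0.000248, limma). MT1X read 10.69, 9.21, 9.65 and 10.02 at 12 h, against 6.68, 7.02 and 7.53 at 0 h (change 2.84 ± 0.40, adjusted p = 0.000214, limma). The 12 h follicles hardly differed in MT2A and spanned more than 1 unit in MT1X. Whether the top of the intensity range limited the spread or the change of MT2A was not tested. SLC39A8, a zinc importer, fell by 1.61 on the log2 scale with an SE of 0.31.

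**Figure D3:**
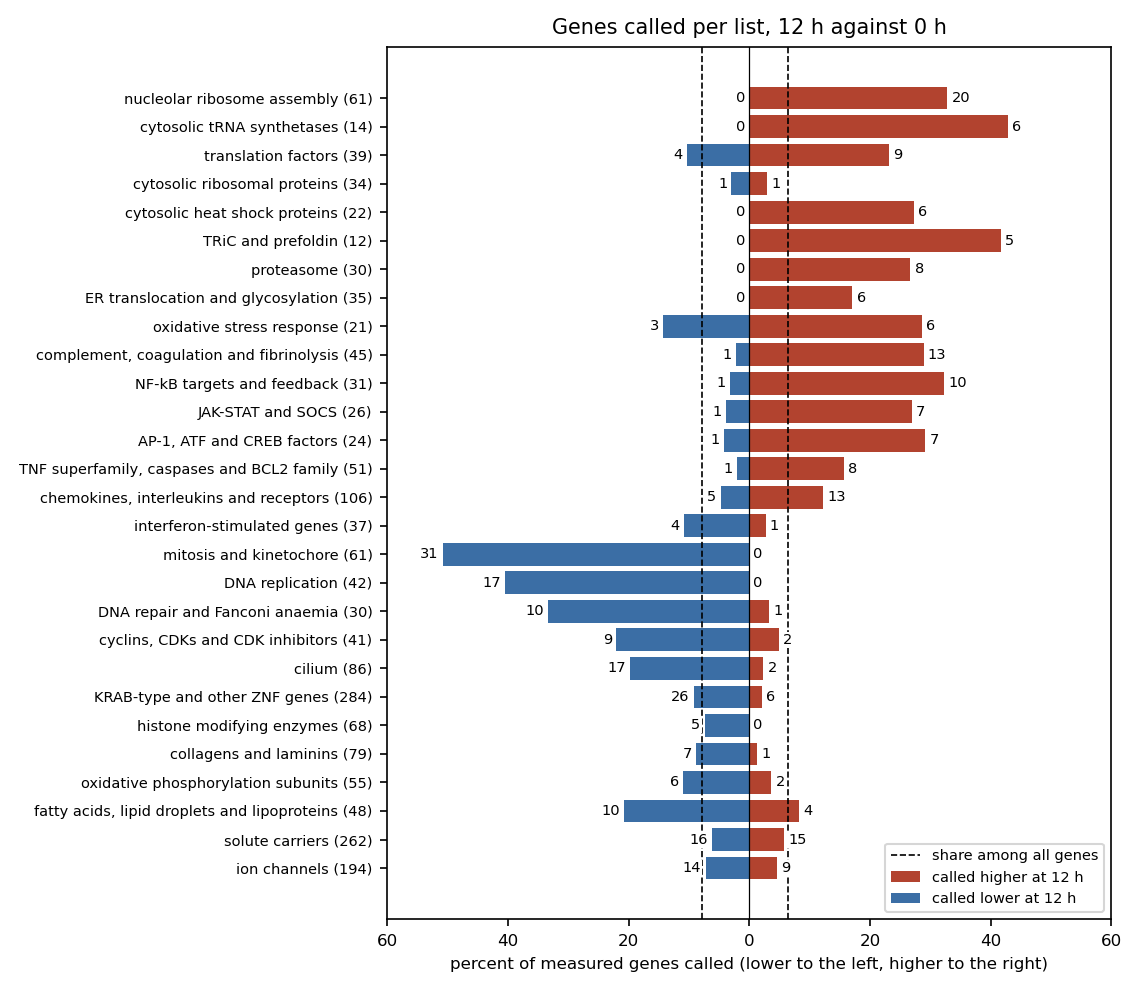
Percent of the measured genes of 28 lists called higher at 12 h (red bars to the right) and lower at 12 h (blue bars to the left), with the count beside each bar and the number measured in brackets. Dashed lines mark 6.5% higher and 7.8% lower over all 14132 genes; ribosome assembly with 20 of 61 and mitosis with 31 of 61 extend far past them in opposite directions, while ion channels and solute carriers stay near them.

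Many genes of cell division were lower at 12 h. Of 61 genes of mitosis and the kinetochore, the structure by which chromosomes attach to the spindle, 31 were lower (50.8%) and none higher. Over all genes 7.8% were lower and 6.5% higher. The list held 57 negative changes, with a median of -0.72. The list's mean level was 5.89, 6.10, 5.79 and 6.31 at 12 h and 6.54 to 6.97 at 0 h, so every 12 h follicle lay below every 0 h follicle. The count was 19 without 12 h replicate 1, 20 without 12 h replicate 3, 17 with the RNA quality index as a covariate and 21 in the fit of the 10 arrays alone. KIF22, a kinesin motor that pushes chromosome arms outwards, read 6.79, 6.78, 6.88 and 6.95 at 12 h, against 7.61, 8.07 and 8.28 at 0 h (change -1.17 ± 0.12, adjusted p = 1.29e-05, limma). CENPF, a kinetochore protein, changed by -1.09 ± 0.24 and CCNB2, a cyclin of mitotic entry, by -1.21 ± 0.25. Of 41 cyclins, CDKs and CDK inhibitors 9 were lower (22%) and 2 higher (4.88%), with 5 lower in the fit of the 10 arrays alone.

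DNA replication genes went the same way, with 17 of 42 lower (40.5%, beside 7.8% over all genes), none higher and a median of -0.51. In the fit of the 10 arrays alone 9 were lower. MCM5, a subunit of the replication helicase, read 7.11, 7.69, 6.90 and 7.25 at 12 h, against 8.02, 8.31 and 8.46 at 0 h (change -1.04 ± 0.14, adjusted p = 0.000184, limma). MCM3, another subunit, changed by -1.09 ± 0.16 and the loading factor MCM10 by -1.16 ± 0.21. Of 30 DNA repair and Fanconi anaemia genes 10 were lower (33.3%) and 1 higher (3.33%), with a median of -0.63. DDB2, which recognises ultraviolet damage, changed by -1.09 ± 0.18 and FANCI, which acts at stalled replication forks, by -1.03 ± 0.18. E2F2, a transcription factor of S phase genes, read 4.18, 3.71, 4.28 and 4.03 at 12 h, against 5.04, 5.58 and 5.90 at 0 h, with the 12 h values below the array median.

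Markers of granulosa cells were also lower at 12 h. All 10 granulosa markers had a negative change with a median of -1.38, and 4 were called lower. Their mean level was 8.06, 7.89, 7.87 and 8.58 at 12 h and 9.01 to 10.05 at 0 h, well above the array median in both groups. AMHR2, the receptor of anti-Müllerian hormone, changed by -1.40 ± 0.25. Of the 7 measured genes of the theca list 5 had a negative change, with a median of -0.40 over the list. There 2 were called lower and only WT1, at 1.11 ± 0.24, was called higher. The theca androgen enzyme CYP17A1 was still bright at 10.44, 9.70, 8.97 and 11.51 at 12 h, against 11.56, 12.04 and 12.55 at 0 h. The 11 oocyte markers averaged 4.44 to 5.40 at 12 h and 3.97 to 6.24 at 0 h, around the array median, with 0 called. Whether the fall of division genes differs from that of these granulosa markers was not tested. The markers are single genes and do not measure granulosa RNA in general.

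**Figure D4:**
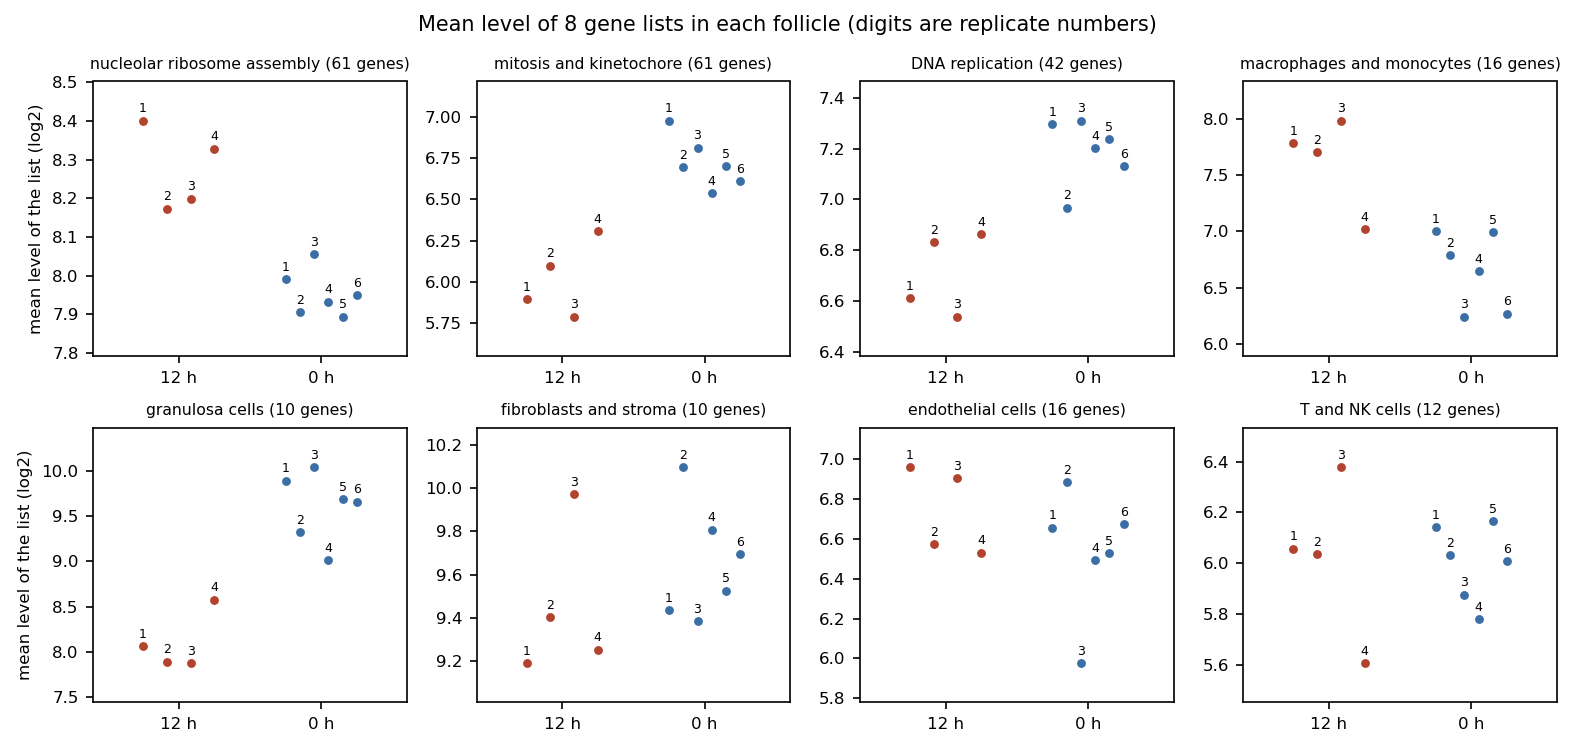
Mean level (log2) of 8 gene lists in each follicle, 12 h in red on the left and 0 h in blue on the right, with the replicate number over each point. Ribosome assembly (8.17 to 8.40 at 12 h, 7.89 to 8.06 at 0 h), mitosis, replication and granulosa lists separate the groups, the macrophage list does so only narrowly because of 12 h replicate 4 at 7.02, and the stroma, endothelial and T cell lists overlap.

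Genes of the cilium and its base were more often lower than higher. Of 86 measured, 17 were lower (19.8%) and 2 higher (2.33%), beside 7.8% and 6.5% over all genes. A negative change was found in 69, and the median was -0.34. Their mean level was 5.44, 5.52, 5.40 and 5.51 at 12 h and 5.66 to 6.49 at 0 h, where replicate 2 stood apart at 6.49 and the next highest, replicate 5, was at 5.95. The count of 17 was 15 without 0 h replicate 2, 9 without 12 h replicate 1, 11 when 0 h replicate 3 or 5, or 12 h replicate 3 or 4, was left out, 10 with the RNA quality index as a covariate, and 7 in the fit of the 10 arrays alone. BBS4, part of the complex that sorts proteins into the cilium, read 5.97, 5.69, 5.93 and 5.87 at 12 h, against 6.72, 6.87 and 7.20 at 0 h (change -1.07 ± 0.15, adjusted p = 0.00024, limma). IFT25, a particle of ciliary transport, changed by -1.28 ± 0.19 and CEP72, a protein of the centrosome, by -1.21 ± 0.22.

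Among regulators of gene expression, zinc finger genes and histone modifying enzymes were called lower at shares near that over all genes, with small changes that were mostly negative. Of 284 ZNF genes, a family of DNA-binding proteins with many repressors, 26 were lower (9.15%) and 6 higher (2.11%). Over all genes 7.8% were lower and 6.5% higher, and 7120 of 14132 had a negative change. A negative change was found in 200 ZNF genes, and the median of these 284 genes was -0.16. Their lower count was 12 to 15 when 12 h replicate 1, 2 or 4, or 0 h replicate 3 or 4, was left out, and 13 in the fit of the 10 arrays alone. Their higher count was 3 without 12 h replicate 1 or with the RNA quality index as a covariate and 2 in the fit of the 10 arrays alone. ZNF16 changed by -0.98 ± 0.16 and ZNF385A, in the other direction, by 0.96 ± 0.18. Of 68 histone modifying enzymes 5 were lower and none higher, a lower share (7.35%) like that over all genes. Here 48 had a negative change, with a median of -0.10. The count of 5 was 3 without any of 0 h replicates 3, 4 and 5 or 12 h replicates 1, 2 and 4. In the fit of the 10 arrays alone 3 were lower, and 2 with the RNA quality index as a covariate. FOXO4, a forkhead factor held in check by insulin signalling, read 6.48, 6.58, 6.26 and 6.09 at 12 h, against 7.75, 7.94 and 8.18 at 0 h (change -1.61 ± 0.17, adjusted p = 1.37e-05, limma).

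A pair of RNA-binding proteins known for their response to cold in mammalian cells moved in opposite directions. RBM3 read 10.69, 10.69, 10.28 and 10.62 at 12 h, against 9.32, 9.49 and 9.74 at 0 h (change 1.06 ± 0.14, adjusted p = 0.000125, limma). CIRBP read 8.40, 8.28, 8.52 and 8.37 at 12 h, against 8.82, 9.37 and 9.53 at 0 h (change -0.88 ± 0.17, adjusted p = 0.00245, limma). All of the 12 h follicles were above all 0 h follicles in RBM3 and below them in CIRBP. The SR protein and hnRNP list to which they belong had 2 of 42 higher and 6 lower, with 2 lower without 12 h replicate 4, 3 without 12 h replicate 1 or replicate 2, and 2 in the fit of the 10 arrays alone. With the RNA quality index as a covariate 3 were lower.

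Growth factor and guidance signalling changed in single members and not as whole lists. BAMBI, a decoy receptor that blocks TGF-beta and activin signals, read 6.97, 7.35, 7.24 and 7.30 at 12 h, against 9.26, 9.73 and 10.27 at 0 h (change -2.53 ± 0.23, adjusted p = 3.61e-06, limma). GDF15, a stress-induced member of the TGF-beta family, read 7.78, 9.24, 8.64 and 8.33 at 12 h, against 5.08, 5.81 and 6.82 at 0 h (change 2.70 ± 0.37, adjusted p = 0.000184, limma). The TGF-beta, BMP and activin list held 7 higher and 6 lower of 51, with a median of -0.02, and 4 were higher with the RNA quality index as a covariate. Of 52 WNT genes 2 were higher and 5 lower, with 3 lower without 12 h replicate 1 and in the fit of the 10 arrays alone, and the WNT receptor FZD5 changed by -1.35 ± 0.19. The Notch list had 1 lower of 23, the co-activator MAML3 at -0.92 ± 0.13.

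Feedback inhibitors of MAP kinase signalling were higher in 5 of 28 (17.9%) and lower in 1 (3.57%), beside 6.5% and 7.8% over all genes. SPRY4, which damps receptor tyrosine kinase signals, read 8.11, 7.83, 7.00 and 7.77 at 12 h, against 4.32, 5.37 and 5.81 at 0 h (change 2.38 ± 0.28, adjusted p = 3.85e-05, limma), and its relative SPRY1 changed by 1.06 ± 0.24. The count of 5 was 3 when 0 h replicate 3 or 4, or 12 h replicate 1, 3 or 4, was left out, and 3 with the RNA quality index as a covariate. RGS2, which shuts off G protein signals, read 11.63, 11.22, 11.19 and 11.73 at 12 h, against 9.03, 9.15 and 9.69 at 0 h (change 2.21 ± 0.32, adjusted p = 0.000265, limma). RAPGEF4, the cyclic AMP sensor EPAC2, fell by 1.92 on the log2 scale with an SE of 0.29, and PRKAR2B, a regulatory subunit of protein kinase A, by 1.04 with an SE of 0.18. IGF1, a growth factor of the follicle, was bright in both groups at 11.89, 12.14, 11.98 and 11.24 at 12 h, against 9.99, 10.62 and 10.91 at 0 h (change 1.31 ± 0.22, adjusted p = 0.000829, limma), and all 4 of its probe sets were called higher. Among guidance genes the ligand EFNB1 changed by -1.78 ± 0.21 and the receptor ROBO1 by 1.502 ± 0.25, with 6 of 63 higher and 7 lower in all.

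Single genes of the matrix were lower, while the collagen and laminin list changed little as a whole. LAMA1, a laminin chain, read 6.92, 6.68, 6.80 and 7.40 at 12 h, against 8.26, 9.25 and 9.58 at 0 h (change -2.10 ± 0.24, adjusted p = 3.03e-05, limma), with both its probe sets called. HSPG2, the heparan sulfate proteoglycan perlecan, changed by -0.96 ± 0.20 and OGN, a small proteoglycan of stroma, by -1.14 ± 0.23. Over 79 collagens, laminins and related genes 7 were lower (8.86%) and 1 higher (1.27%), so the lower share was near that over all genes. Of the 79 changes 48 were negative and 31 positive, with a median of -0.08. LRRC17, a secreted leucine-rich repeat protein, read 6.65, 6.88, 6.86 and 6.42 at 12 h, against 8.79, 9.08 and 9.48 at 0 h (change -2.40 ± 0.26, adjusted p = 1.63e-05, limma).

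Cytoskeletal genes were called in both directions at about the share over all genes. Of 64 genes of actin, myosin, tropomyosin and troponin 6 were higher and 5 lower, with 3 lower without 12 h replicate 1 or with the RNA quality index as a covariate, and of 16 tubulins and microtubule proteins 2 were higher and 2 lower. MAP6D1, which stabilises microtubules, read 7.75, 6.10, 6.84 and 6.79 at 12 h, against 9.35, 10.30 and 10.98 at 0 h (change -3.33 ± 0.40, adjusted p = 5.47e-05, limma), and DCLK1, a microtubule-binding kinase, changed by -1.89 ± 0.33 with all 3 probe sets called. TUBA4A, an alpha tubulin, changed by 0.87 ± 0.17, and TUBB3, a beta tubulin, by 1.23 ± 0.20, though the mean of the TUBB3 probe sets gave 0.47 with an adjusted p of 0.219 (limma). Genes best known from striated muscle appeared on both sides. OBSL1, a cytoskeletal adaptor related to obscurin, read 9.40, 9.04, 9.07 and 9.36 at 12 h, against 10.71, 10.95 and 11.36 at 0 h (change -1.78 ± 0.15, adjusted p = 1.64e-06, limma). The troponin genes TNNI3 and TNNT1 fell by 3.29 and 2.50 on the log2 scale with SEs of 0.65 and 0.55. MYOM1, a protein of the sarcomere's M band, and MYH4, a myosin heavy chain, changed by 3.34 ± 0.67 and 6.49 ± 0.84, and MYH4 lay at 2.40 or lower in every 0 h follicle, below the array median.

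Lists of lipid, respiratory chain and P450 genes held more lower than higher members, as did all genes (7.8% lower and 6.5% higher). Their lower shares were 20.8%, 10.9% and 14.8%. IDH1, the cytosolic isocitrate dehydrogenase that makes NADPH, read 9.93, 10.17, 10.10 and 9.79 at 12 h, against 11.12, 11.43 and 11.63 at 0 h (change -1.41 ± 0.16, adjusted p = 2.35e-05, limma). Of 48 genes of fatty acids, lipid droplets and lipoproteins 10 were lower and 4 higher, with 4 lower and 1 higher in the fit of the 10 arrays alone. APOA1, the main protein of high-density lipoprotein, changed by -1.19 ± 0.23, while ACSL1, which activates long fatty acids, changed by 1.34 ± 0.29. Oxidative phosphorylation had 6 of 55 lower and 2 higher, with SDHA of complex II at -0.75 ± 0.14 and NDUFV1 of complex I at -0.58 ± 0.11. Its lower count was 3 without 12 h replicate 2 or replicate 3, and 3 in the fit of the 10 arrays alone or with the RNA quality index as a covariate. This list was bright, with a mean level of 9.33 to 9.57 at 12 h and 9.44 to 9.66 at 0 h. In the brightest class of probe sets 21.4% were called in either direction, so its count does not set it apart.

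Enzymes of the P450, UGT, GST and aldehyde dehydrogenase families had 13 of 88 lower and 7 higher, with 4 higher without 12 h replicate 4 and in the fit of the 10 arrays alone. GSTA3, a glutathione transferase that in humans also isomerises steroids, read 11.39, 10.94, 10.30 and 10.62 at 12 h, against 11.70, 12.18 and 12.52 at 0 h (change -1.35 ± 0.20, adjusted p = 0.000372, limma). ALDH1A3, which makes retinoic acid, read 9.58, 7.77, 9.36 and 8.72 at 12 h, against 5.70, 6.15 and 6.84 at 0 h (change 2.60 ± 0.35, adjusted p = 0.000155, limma). CYP3A5, a P450 that oxidises steroids and drugs, changed by 4.89 ± 0.81 with all 3 probe sets called, and CYP21A2, the steroid 21-hydroxylase, by 2.69 ± 0.48. TM7SF2, a sterol reductase, fell by 2.04 on the log2 scale with an SE of 0.26, although 5 of 17 cholesterol synthesis genes were called higher and it alone was called lower. That count of 5 was 2 without 12 h replicate 4, 3 without 12 h replicate 1 or any of 0 h replicates 1 to 5, and 3 in the fit of the 10 arrays alone. SLC26A2, a sulfate transporter, read 9.02, 8.61, 8.14 and 8.87 at 12 h, against 10.18, 10.46 and 10.51 at 0 h (change -1.72 ± 0.18, adjusted p = 1.49e-05, limma). Solute carriers as a whole had 15 of 262 higher and 16 lower, and ion channels 9 of 194 higher and 14 lower, with 8 lower without 12 h replicate 4, and 4 higher and 5 lower in the fit of the 10 arrays alone.

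The calls of some bright genes rested on only part of their probe sets. ST14, a membrane serine protease, changed by -1.82 ± 0.24, FAT1, a giant cadherin, by -1.54 ± 0.25, NDRG2, a differentiation gene, by -1.47 ± 0.17 and SPDYA, an activator of cyclin-dependent kinases, by 1.90 ± 0.31. With the mean of all probe sets of each gene these changes were -0.50, -0.31, -0.41 and 0.96, with adjusted p of 0.186, 0.357, 0.329 and 0.0841 (limma). DKK3 and UBE2F each had 2 probe sets called against the direction of their brightest one, so no direction is given for them.

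Of 7 reference genes often used for scaling, 5 did not pass the test. ACTB changed by 0.16 ± 0.08, B2M by 0.25 ± 0.09, TFRC by 0.40 ± 0.19, GAPDH by -0.09 ± 0.16 and YWHAZ by 0.03 ± 0.08, and the sign of the last pair turned under some settings. HPRT1 read 9.25, 9.28, 9.13 and 9.24 at 12 h, against 8.44, 8.54 and 8.64 at 0 h (change 0.68 ± 0.12, adjusted p = 0.00132, limma), but the mean of its 2 probe sets gave -0.92. The remaining one was SDHA, given above.

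The median spread among follicles was similar in the groups, and some genes were picked for a larger spread at 12 h. In the 7066 genes above the median level the median SD was 0.21 at 12 h and 0.18 at 0 h, and 77 genes had an SD over 1 at 12 h, against 49 at 0 h. These SDs came from 4 follicles at 12 h and 6 at 0 h. The 6 genes with the highest SD at 12 h, among 3982 genes with an SD under 0.5 at 0 h and a level of at least 8 in 1 or more follicles, were chosen for that spread. Their larger spread at 12 h therefore follows from the choice, and the reverse choice was not made. HSD11B1, which regenerates active glucocorticoid, read 8.63, 11.18, 7.24 and 10.30 at 12 h, against 5.15, 5.28 and 6.05 at 0 h. MYOM1 read 8.53, 10.62, 7.23 and 11.09 at 12 h, against 5.63, 5.84 and 6.79 at 0 h, with the same order of the 12 h follicles but for the top pair. LIF, a cytokine of the interleukin 6 family, read 7.07, 5.66, 6.17 and 9.63 at 12 h, against 3.60, 4.39 and 4.62 at 0 h, and rose by 2.83 ± 0.50. LYPD3, a surface protein of epithelia, and CTSK, a collagen-degrading cathepsin, shared another order, with 9.08, 11.03, 11.80 and 8.21 for LYPD3 and 9.33, 11.40, 12.42 and 9.07 for CTSK. TPX2, a spindle protein, read 6.23, 8.53, 5.42 and 8.49 at 12 h, against 6.89, 7.02 and 7.65 at 0 h, so that the 12 h follicles lay on both sides of all 0 h follicles. LYPD3, CTSK and TPX2 did not pass the test between the groups, with changes of 0.89 ± 0.51, 0.38 ± 0.49 and 0.04 ± 0.52.

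**Figure D5:**
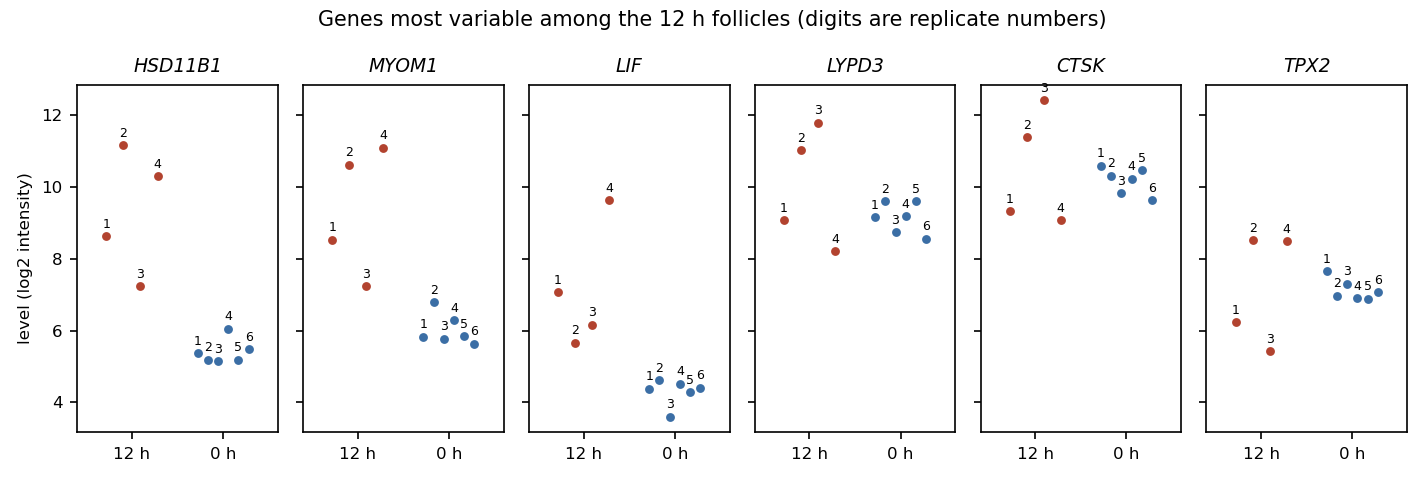
Level (log2 intensity) of the 6 genes most variable among the 12 h follicles (of those reaching a level of 8 with an SD under 0.5 at 0 h), 12 h in red on the left and 0 h in blue on the right, with replicate numbers over the points. Replicate 3 is lowest for HSD11B1, MYOM1 and TPX2 and highest for LYPD3 (11.80) and CTSK (12.42), and replicate 4 is highest for LIF (9.63).

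The spread had a pattern over follicles. Among 442 genes that rose with every array left out and without overlap, 12 h replicate 4 was the highest 12 h follicle for 182 (41.2%) and replicate 3 the lowest for 175 (39.6%). For the 546 genes that fell in the same sense the lowest follicle was spread more evenly, from 92 genes in replicate 2 to 164 in replicate 4. Their highest 12 h follicle was replicate 3 for 181 genes (33.2%), against 87 (15.9%) for replicate 1. The mean of 10 stroma markers was 9.19, 9.40, 9.97 and 9.25 at 12 h and 9.38 to 10.10 at 0 h, so that within the 12 h group replicate 3 was highest in stroma and macrophage markers and replicate 4 highest in granulosa markers. Replicate 3 was also highest in the RNA quality index, and the part of either in the order of follicles was not tested. Without replicate 3 the comparison called 4383 probe sets and without replicate 4 it called 3761.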

How the data were processed

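The values are microarray intensities, 1 per probe set and array, made with RMA per the submitters' processing notes; RMA corrects background, normalises between arrays and summarises the probes of a set, with a version not stated in the sources. Its output is normally on the log2 scale, but the deposited intensities ran from 0.0361 to 14660 over the 22 arrays of the series, so they were taken as linear and log2 was applied. Per the labels' protocols, 2 µg of total RNA per follicle was amplified and labelled.

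Groups and replicate numbers came from sample titles. Group means of all 22 arrays in 5 groups were fitted with lmFit and eBayes (limma 3.58.1, R 4.3.3) for each probe set, control probe sets left out, and the contrast of 12 h with 0 h was tested two-sided at an adjusted p of 0.05 (Benjamini-Hochberg, 52766 probe sets). The fit was tested on simulated data. Symbols were those of the platform's annotation, where 24956 probe sets had 1 symbol, 361 several and 27449 none, and 24616 gene IDs matched the RefSeq gene table given. Named were stable genes: the 15 with the highest and 15 with the lowest change, the 10 highest and 10 lowest of bright ones, up to 3 per list, all reference genes, and the 6 most variable at 12 h. The 75 lists, their genes and this rule were chosen with earlier results of these data known. Lists got no set test.

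The labels do not say that a replicate number is shared by an animal or batch. The correlation of deviations was -0.084 to -0.0173 between same-numbered arrays and -0.0937 to 0.136 between other pairs. These values showed no pairing by number, but with so few pairs they cannot exclude it. Alternatives were a fit of the 10 arrays alone, 16 added before log2, probe sets above the median level, quantile normalization, array weights, limma-trend, the RNA quality index as a covariate, a replicate block, each of the 10 arrays left out, and the mean of all probe sets of a gene. A planned count of promoter motifs was not run, since no promoter sequences were used here. No batch or scan date was given. The number of arrays limits the precision.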

Additional observations from a re-analysis of the deposited data

Results flagged for a closer look

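Among 398 groups of values of the named genes, 20 (5.03%) held a highest or lowest follicle far from the others by Dixon's criterion, about the 1 in 20 that chance flags. In the 12 h group, replicate 3 was low for PTX3 (9.62, others 10.47 to 10.61), TIMP1 (13.34, others 13.48 to 13.50), YARS1 (8.43, others 8.78 to 8.84), PHGDH (6.94, others 7.32 to 7.39) and RBM3 (10.28, others 10.62 to 10.69). Replicate 4 was low for SIMC1 (8.50) and IFIT3 (7.16, others 7.88 to 7.90), and replicate 1 high for SEC24A (9.13).

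In the 0 h group, replicate 6 was high for NPTX2 (8.60, others 5.18 to 6.37) and GFPT2 (7.84, others 5.82 to 6.44). Replicate 4 was high for HSD11B1 (6.05) and low for RGN (7.00), SIRT4 (5.93), INHBB (1.95) and TNNT1 (5.49). Replicate 2 was low for SIMC1 (10.20) and FZD5 (6.81), replicate 3 low for KLF4 (7.21) and LIF (3.60), and replicate 1 low for CLDN10 (4.47). All flagged genes kept groups that do not overlap.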

How the results depend on the processing

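The count of 4922 called probe sets was 2740 in the fit of the 10 arrays alone (1221 higher, 1519 lower), 5762 with 16 added, 6717 among probe sets above the median level, 4950 after quantile normalization, 5234 with array weights, 5953 with limma-trend and 3516 with the RNA quality index. With one array left out it was 3502 to 4780. The replicate block, whose numbers the labels do not tie to animals or batches, gave 2418 (1106 higher, 1312 lower). The 1724 calls of at least 2-fold were 960 with 16 added, which shrinks changes of dim probe sets. Of 188 named genes chosen for being called, 179 were also called in the fit of the 10 arrays alone, 183 with the index, 166 with the block and 168 by the mean of their probe sets.

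Signs turned in genes that did not pass the test or whose probe sets differ. HPRT1 was -0.92 by the mean of its probe sets, and 0.66 to 0.71 with one array left out. GAPDH ran from -0.23 to 0.0351 with one array left out, the highest without 12 h replicate 3. YWHAZ ran from -0.0152 without 12 h replicate 4 to 0.0576 without replicate 3, and was -0.0231 by the mean of its probe sets. CTSK was -0.0789 with the index, and -0.24 to 0.87 with one array left out, the lowest without 12 h replicate 3. TPX2 was -0.0392 with the replicate block and ran from -0.42 without 12 h replicate 2 to 0.62. Other causes of these shifts were not tested. No detection calls were given, so dim probe sets could not be told from background.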

Other observations

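Some gene lists not described above are given here as values. Nuclear receptors had 2 of 32 higher and 2 lower, with 4 higher without 12 h replicate 2; NR5A1, a regulator of steroid enzymes, changed by -1.62 ± 0.21 and RORA, a receptor of the circadian clock, by 1.57 ± 0.30. Antigen presentation had 1 of 29 higher, the lipid-presenting CD1C at 1.26 ± 0.24. G protein-coupled receptors had 8 of 133 higher (6.02%) and 1 lower (0.752%), beside 6.5% and 7.8% of all genes. The higher count was 4 without 12 h replicate 3 and 3 with the RNA quality index as a covariate, and the lower count 4 without 0 h replicate 1. This list was dim, with a mean level of 4.16 to 4.23 at 12 h and 3.92 to 4.10 at 0 h. In the brightness class holding these levels 2.8% of probe sets were called, so the low share of lower members is not read as a result. The lysosomal protease CTSL rose by 1.40 ± 0.19, with 12 h replicate 3 highest at 11.60, and TFEB, the transcription factor of lysosome genes, rose by 0.95 ± 0.18 from near the array median.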
